A study of Mus musculus with 2 samples.

Results

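Fibrillar collagen is folded, hydroxylated and crosslinked by a small set of enzymes and chaperones, and 10 of their genes were followed here at a healing mouse fracture. *Serpinh1*, *P4ha1*, *P4hb*, *Plod1*, *Plod2*, *Crtap*, *P3h1*, *Ppib*, *Fkbp10* and *Lox* were taken by name among the 19465 genes of the count tables, by a rule that uses no measured value, though with earlier results of these data known. Spatial gene expression had been measured with the Visium assay for FFPE tissue, in which probe pairs are counted as unique molecular identifiers (UMIs) on a grid of barcoded spots. A spot covers several cells, so fewer cells of a type and less RNA per cell cannot be told apart. Female bone cell reporter (BCR) mice, which carry eGFP and mCherry at the osteoblast gene *Ibsp* and the osteoclast gene *Acp5*, received a mid-diaphyseal femoral defect stabilised by an external fixator at 12 weeks of age. After bridging, the Loaded group received cyclic mechanical loading through the fixator 3 times per week between weeks 3 and 5 after surgery, and the Control group received sham-loading on the same schedule. Femurs were collected at the end of week 5, at 17 weeks of age. Each condition is represented by 1 section from 1 mouse, so animal, section and treatment cannot be told apart, and no p-value is given.

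Procollagen chains are modified while they enter the endoplasmic reticulum. Prolyl 4-hydroxylase makes the hydroxyproline that keeps the triple helix stable at body temperature, and lysyl hydroxylases prepare the lysines that later carry sugars and crosslinks. Dedicated chaperones bind the folded helix in the endoplasmic reticulum, and lysyl oxidase later crosslinks the fibres in the matrix. Loss of *SERPINH1*, *CRTAP*, *P3H1*, *PPIB* or *FKBP10* in people causes recessive forms of osteogenesis imperfecta, which is why these genes are known in bone. Their substrate in bone is type I collagen, encoded by *Col1a1* and *Col1a2*.

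The authors listed the barcodes of the bone spots between the inner fixator pins, 131 in Control and 146 in Loaded, and every remaining spot under tissue that passed the depth filter is called an other spot here. Bone spots held 557259 UMIs in Control and 409020 in Loaded, with medians of 3478 and 2621 per spot, and the 1767 and 1285 other spots held 8426953 and 4499787. The bone spots also held UMIs of markers of other tissues, and how these came to be counted there was not tested. Skeletal muscle markers (22 of 22 detected) took 16.9% of bone UMIs in Control and 8.98% in Loaded, with single spots between 1.21% and 36.8% and between 2.58% and 27.7%. Osteoblast markers (7 of 7) took 0.105% and 0.495%, osteoclast markers (7 of 7) 0.385% and 0.483%, and tendon and fibrous tissue markers (7 of 7) 0.360% and 0.181%. Granulocyte markers (7 of 7) took 0.0854% and 0.355%, erythroid markers (5 of 6) 2.46% and 3.03%, and plasma cell markers (6 of 6) 0.0400% and 0.0655%. Chondrocyte markers stood at 0.00987% and 0.0127%, with *Col10a1* and *Matn3* at 0 in the bone spots of both sections and *Hapln1* at 0 in those of Control. The sections shared 557 spot barcodes, which in this assay name array positions and not cells.

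The enzymes were sparsely counted. In bone spots they gave 839 UMIs together in Control and 721 in Loaded, against 10678 and 24890 for *Col1a1* plus *Col1a2*. *Serpinh1* encodes HSP47, the collagen-specific chaperone of the endoplasmic reticulum (chromosome 7, 99345376 to 99353239, minus strand, GRCm38). It gave 277 bone UMIs in Control and 282 in Loaded, and no other member passed 112. Because each gene is read by its own probes, levels are compared between regions and not between genes.

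The promoters of *Serpinh1* and *P4ha1* are shown, since *Serpinh1* was the most counted member and *P4ha1* (prolyl 4-hydroxylase subunit alpha 1, chromosome 10, 59323296 to 59373304, plus strand) had the highest Loaded over Control ratio. They are the 250 bases before the RefSeq start, 5′ to 3′ on the gene's strand (GRCm38.p6), at chr7:99353240-99353489 and chr10:59323046-59323295. Capitals mark the letters ACGTG, a form of the core of the hypoxia response element, on either strand, here read as CACGT. Other forms of the core were not marked or counted.
Serpinh1: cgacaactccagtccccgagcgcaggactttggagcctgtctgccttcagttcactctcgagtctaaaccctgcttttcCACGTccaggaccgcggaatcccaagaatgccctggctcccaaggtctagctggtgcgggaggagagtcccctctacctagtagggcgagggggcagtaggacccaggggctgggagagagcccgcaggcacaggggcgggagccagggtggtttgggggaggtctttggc
P4ha1: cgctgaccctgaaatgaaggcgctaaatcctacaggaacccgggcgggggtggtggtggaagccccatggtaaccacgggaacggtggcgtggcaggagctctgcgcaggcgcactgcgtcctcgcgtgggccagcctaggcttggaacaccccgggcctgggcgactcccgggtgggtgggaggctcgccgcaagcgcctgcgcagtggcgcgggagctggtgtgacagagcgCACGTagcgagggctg
Each held the letters once. Of the 7 members with a promoter in the RefSeq table, 5 held them in at least 1 promoter, and 16.6% of 32851 promoters of this length did. The member count is per gene, with more than 1 promoter for *P3h1*, while the share is per promoter. These are matches of letters and say nothing of binding.

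The first comparison set Loaded against Control in the bone spots, with UMI sums divided by scran size factors. The enzymes did not share the higher level of their substrate. *Col1a2* (+1.66) and *Col1a1* (+1.36) were higher in Loaded on the log2 scale, while the 10 enzymes had a median of 0.01 and ranged from −0.54 to 0.77. No member passed a 2-fold difference, where 6.26% of 3914 genes with at least 50 UMIs were at least 2-fold higher and 8.18% at least 2-fold lower. Of the members, 5 lay above 0 (48.6% of genes) and 5 below, and their median was close to that of the tested genes (−0.02). The counting interval lay above 0 in 2 members (17.6% of genes) and below 0 in 1 (20.7%). In every member the 4 spatial blocks of one section overlapped those of the other, whereas for 4.5% of genes all Loaded blocks were above those of Control and for 2.89% all were below. The blocks of *Col1a1* and *Col1a2* overlapped as well. When each block was left out, *Col1a1* ranged from 0.90 to 2.61 and *Col1a2* from 1.26 to 2.51. The median of the members then ranged from −0.32 to 0.50.

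**Figure D1:**
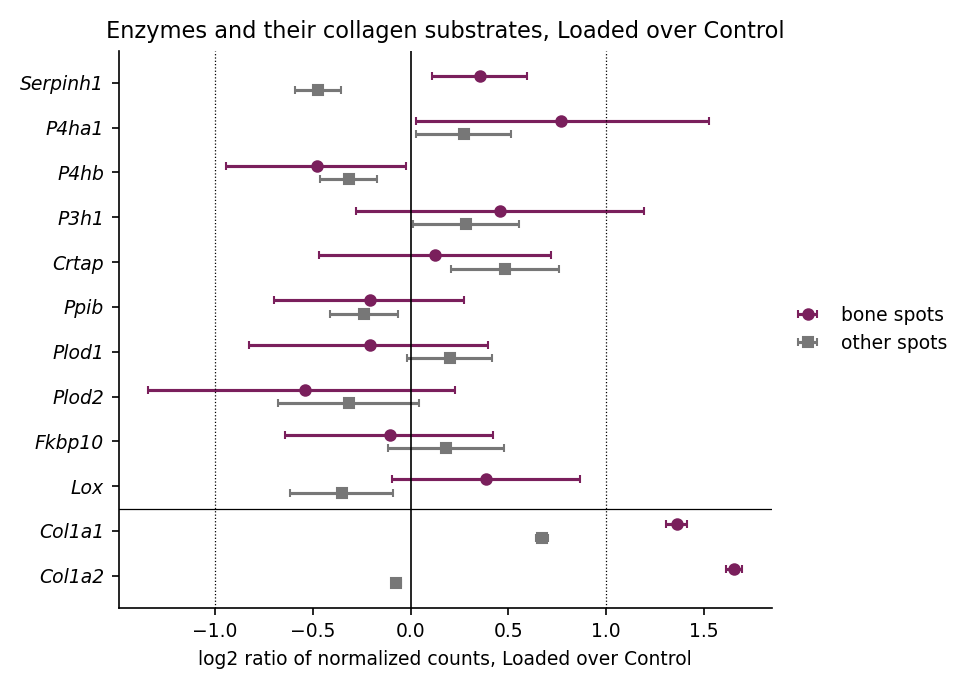
Log2 ratio of normalized counts, Loaded over Control, for the 10 enzymes and the type I collagen genes (rows) in bone spots (circles) and other spots (squares), each scaled with scran factors of its own fit. Bars are exact 95% intervals for counting error in 1 section per condition and dotted lines mark 2-fold. In bone spots both collagen genes sit right of the 2-fold line, at 1.36 and 1.66, and the enzymes sit between −0.54 and 0.77.

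Among the chaperones, *Serpinh1* had a normalized count of 1.80 per unit of size factor in Control and 2.30 in Loaded (+0.35, 95% interval 0.11 to 0.60 for counting error). Within the sections it was uneven. Its level in the 4 blocks of Control bone was 1.53, 4.35, 2.32 and 9.40 UMIs per 10000 UMIs, and in those of Loaded bone 9.28, 4.79, 1.65 and 6.04. The spread inside each section was thus larger than the difference between them. Without the fourth Control block, which held 196 of its 277 UMIs, the log2 ratio was 1.33, and leaving out each other block in turn gave values down to −0.06. In bone spots whose muscle marker share was below 10% it was 0.01. *Fkbp10* encodes FKBP65, a peptidyl-prolyl isomerase that acts on procollagen and on lysyl hydroxylation of its telopeptides (chromosome 11, 100415697 to 100424824, plus strand). It gave 73 UMIs in Control and 54 in Loaded (−0.11, −0.64 to 0.42), and one Loaded block held none.

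The prolyl 4-hydroxylase subunit genes *P4ha1* and *P4hb* lay on opposite sides of 0. *P4ha1*, a catalytic subunit, gave 28 UMIs in Control and 38 in Loaded (+0.77, 0.03 to 1.53). Another alpha subunit gene, *P4ha2*, which is not a member, gave 36 and 42 (+0.55, −0.13 to 1.23). *P4hb*, protein disulfide isomerase, which is the enzyme's other subunit and also a general folding catalyst (chromosome 11, 120560298 to 120573253, minus strand), gave 112 and 64 (−0.48, −0.95 to −0.02). *P4ha1* levels were 0.31, 0.80, 0.26 and 0.62 per 10000 UMIs in the Control blocks and 0.77, 1.68, 0.71 and 0.97 in the Loaded blocks. For *P4hb* the Control blocks read 1.17, 1.49, 1.81 and 3.17, and the Loaded blocks 1.71, 1.92, 0.94 and 1.46. For *P4ha1*, 2 of the 4 Loaded blocks were above the highest Control block and the others lay within the Control range. The *P4hb* difference rested on the fourth Control block, and without it the log2 ratio was 0.01. In bone spots with under 10% muscle markers *P4ha1* stood at 0.15 and *P4hb* at −0.53. The ratio of *P4ha1* to *P4hb* UMIs, which needs no size factor, was 0.250 in Control and 0.594 in Loaded, a log2 difference of 1.25 (0.36 to 2.14). It was 1 of 5 such pairs examined and the 1 whose counting interval left out 0. The fourth Control block held 13 of the 28 *P4ha1* UMIs and 66 of the 112 *P4hb* UMIs. In other spots both genes went the same way as in bone, *P4ha1* at 0.27 and *P4hb* at −0.32.

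*P3h1*, *Crtap* and *Ppib* form the complex that 3-hydroxylates a single proline of the type I collagen helix and also acts as a chaperone. *P3h1* is its hydroxylase (chromosome 4, 119232915 to 119248975, plus strand), with 32 UMIs in Control bone and 35 in Loaded (+0.46, −0.28 to 1.20). *Crtap* is its scaffold (chromosome 9, 114375134 to 114390675, minus strand), with 54 and 47 (+0.13, −0.47 to 0.72). *Ppib* is cyclophilin B, a proline isomerase (chromosome 9, 66060222 to 66066623, plus strand), with 90 and 62 (−0.21, −0.70 to 0.27). None of the 3 could be placed on one side of 0 at this depth. The ratios of *P3h1* to *Crtap*, of *P3h1* to *Ppib* and of *Crtap* to *Ppib* were 0.593, 0.356 and 0.600 in Control and 0.745, 0.565 and 0.758 in Loaded. Their log2 differences of 0.33 (−0.63 to 1.29), 0.67 (−0.23 to 1.56) and 0.34 (−0.44 to 1.11) leave room for differences above 2-fold.

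The lysyl hydroxylases were lower by point estimate, within their counting error. *Plod1*, which acts on the helical lysines (chromosome 4, 147909753 to 147936767, minus strand), gave 58 UMIs in Control bone and 40 in Loaded (−0.21, −0.83 to 0.40). *Plod2*, the hydroxylase of telopeptide lysines and so of the stable crosslinks of bone (chromosome 9, 92542223 to 92608428, plus strand), gave 42 and 23 (−0.54, −1.34 to 0.23). Of the 42 Control UMIs of *Plod2*, 28 fell in the fourth block and none in the third. The fourth block also held 33 of the 58 Control UMIs of *Plod1*. When each block was left out, *Plod1* ranged from −0.73 to 0.21 and *Plod2* from −0.79 to 0.25, so neither direction held throughout. The ratio of *Plod2* to *Fkbp10* was 0.575 in Control and 0.426 in Loaded, a log2 difference of −0.43 (−1.40 to 0.52).

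*Lox* encodes lysyl oxidase, the secreted copper enzyme that starts the crosslinks. It gave 73 UMIs in Control bone and 76 in Loaded (+0.39, −0.10 to 0.87). Its levels were 0.67, 1.60, 0.77 and 1.97 per 10000 UMIs in the Control blocks and 2.60, 0.96, 0.47 and 1.60 in the Loaded blocks. High and low blocks occurred in both sections. With every spot given equal weight the ratio was −0.05.

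Relative to their substrate, the enzymes stood lower in Loaded bone. Together they gave 78.6 UMIs per 1000 *Col1a1* plus *Col1a2* UMIs in Control bone (95% interval 73.3 to 84.1) and 29.0 in Loaded bone (26.9 to 31.2), while the other spots gave 91.5 and 72.9. *Serpinh1* gave 25.9 in Control bone and 11.3 in Loaded bone, *P4hb* 10.5 and 2.57, *Ppib* 8.43 and 2.49, and *Plod2* 3.93 and 0.924. The log2 ratio of this quantity ran from −0.78 for *P4ha1* to −2.09 for *Plod2*, and it was below −1 in 9 of 10 members. The same held for most genes. Relative to collagen, 80.5% of the 3914 tested genes were at least 2-fold lower and 98.3% were lower.

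**Figure D2:**
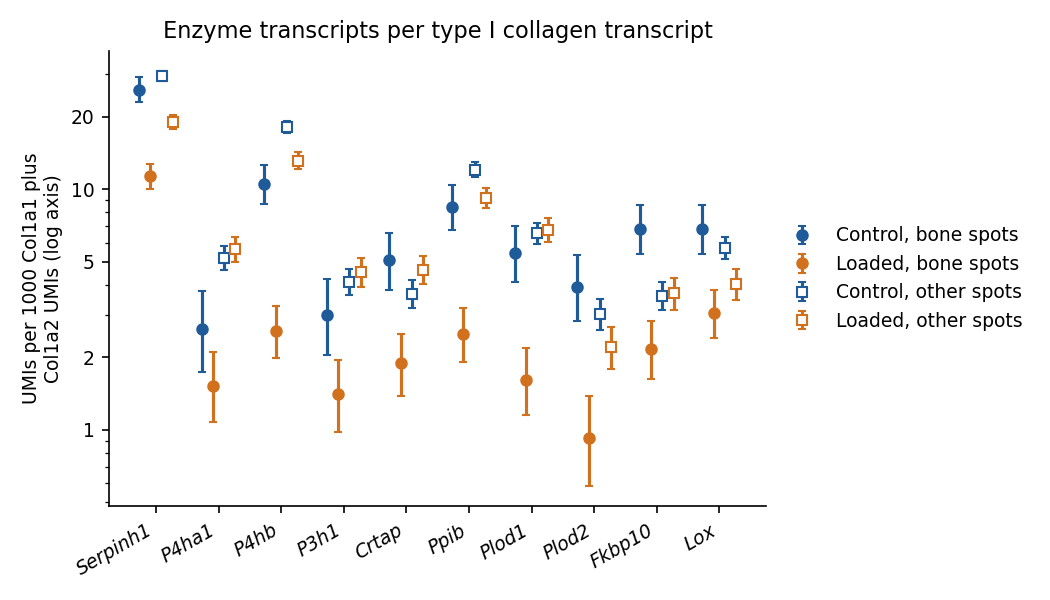
UMIs of each enzyme per 1000 *Col1a1* plus *Col1a2* UMIs (log axis) in the bone spots (filled circles) and other spots (open squares) of Control (blue) and Loaded (orange), with exact 95% intervals for counting error. For each of the 10 enzymes the Loaded bone spots have the lowest value, as with *Serpinh1* at 11.3 against 25.9 in Control bone.

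Other genes of the same pathway were set beside them from a list of 29, of which 25 had at least 10 UMIs in bone. In Loaded over Control bone, 4 of the 25 were at least 2-fold higher and 1 at least 2-fold lower, with a median of 0.09. At the same minimum of 10 UMIs, 10.6% of 10003 genes were at least 2-fold higher and 9.81% lower. The chaperone and transport genes accounted for 3 of the 4. *Creb3l1*, which encodes OASIS, a transcription factor of the secretory pathway in osteoblasts, gave 19 UMIs in Control and 68 in Loaded (+2.17, 1.42 to 2.98). *Pdia3*, a disulfide isomerase of glycoprotein folding, gave 419 and 721 (+1.11, 0.93 to 1.29). The other 2 genes at least 2-fold higher, *Fkbp14* (7 and 19 UMIs) and the propeptide protease gene *Adamts14* (6 and 17), and the one 2-fold lower, *Colgalt2* (8 and 3), rested on few UMIs. The general chaperones *Hspa5* (+0.90) and *Hsp90b1* (+0.51) and the retrieval receptor *Kdelr2* (+0.75) also had counting intervals above 0. In other spots this group of 10 had a median of 0.28, and 8 of its 10 genes lay above 0, as did 50.3% of 11319 genes. In bone its median was 0.86, and 9 of its 10 genes lay above 0, as did 51.3% of those 10003 genes. The 7 hydroxylation and glycosylation genes that were counted had a median of −0.19 with none 2-fold higher, the 5 propeptide cleavage genes a median of −0.04 with 1 higher, and the 3 lysyl oxidase-like genes a median of −0.35 with none past 2-fold. *Pcolce*, an enhancer of propeptide cleavage (−0.75, −1.03 to −0.46), and *Loxl1*, the elastin-directed lysyl oxidase (−0.94, −1.37 to −0.52), were lower. Of the propeptide protease genes, *Adamts2* was lower (−0.77, −1.28 to −0.27) and *Bmp1* higher (+0.56, 0.23 to 0.88). The log2 ratio of *Loxl1* went from −1.36 to 0.11 when each block was left out, so its direction rests on 1 block, and that of *Pcolce* went from −1.27 to −0.19. That of *Adamts2* went from −1.16 to 0.09 and that of *Bmp1* from 0.27 to 0.97. Blocks overlapped between the sections for *Creb3l1*, *Pdia3*, *Hspa5*, *Hsp90b1*, *Kdelr2*, *Pcolce*, *Adamts2*, *Bmp1* and *Loxl1*.

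Bone spots were next compared with the other spots of the same section, which asks where the enzymes were counted. In both sections *Fkbp10*, *Lox*, *Crtap* and *Plod2* were at least 2-fold higher in bone, and *P4hb* was near 0. In Loaded, *Lox* (+1.96, 1.56 to 2.36), *Serpinh1* (+1.61, 1.41 to 1.81), *Fkbp10* (+1.60, 1.13 to 2.05), *Plod2* (+1.11, 0.39 to 1.78) and *Crtap* (+1.07, 0.58 to 1.53) were at least 2-fold higher in bone. That is 5 of 10, where 4.31% of 9588 genes were. In Control 4 of 10 were, where 5.04% of 10257 genes were, namely *Fkbp10* (+1.79, 1.38 to 2.18), *Crtap* (+1.33, 0.87 to 1.76), *Plod2* (+1.24, 0.72 to 1.73) and *Lox* (+1.12, 0.74 to 1.49). *Serpinh1* stood at 0.68 in Control, *Plod1* at 0.60 and 0.29 in Control and Loaded, *P3h1* at 0.41 and 0.68, and *Ppib* at 0.35 and 0.48. *P4ha1* had −0.11 and 0.48 and *P4hb* 0.08 and 0.01. The median member was 0.64 above the other spots in Control (all genes −0.17) and 0.87 in Loaded (all genes 0.02), and no member's bone blocks lay wholly above the other blocks (0.809% of genes in Control and 3.86% in Loaded).

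**Figure D3:**
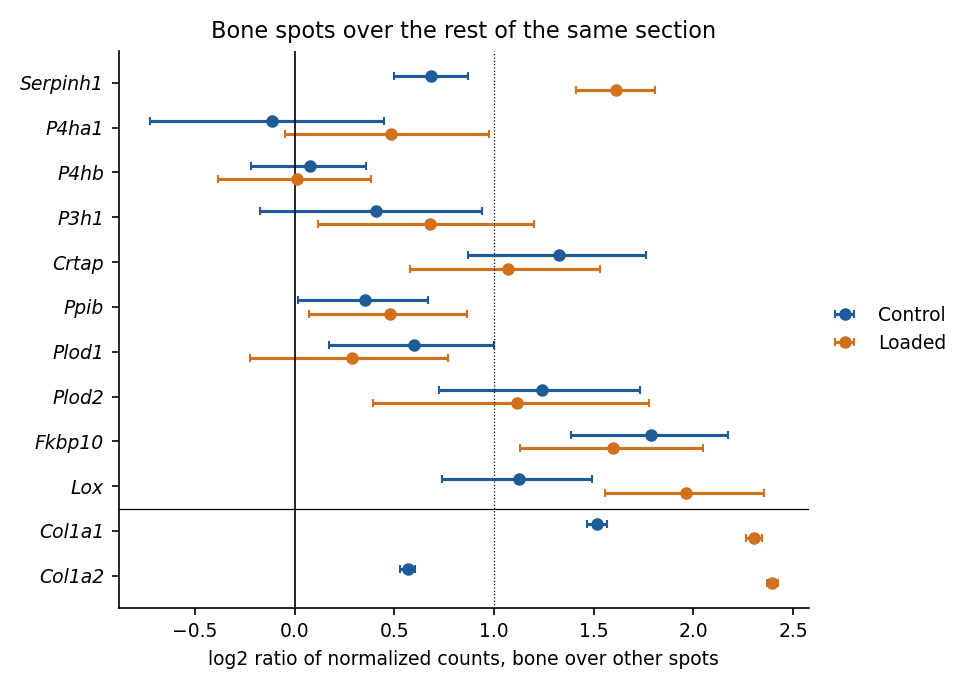
Log2 ratio of normalized counts, bone over other spots of the same section, for the 10 enzymes and the type I collagen genes in Control (blue) and Loaded (orange), with exact 95% intervals for counting error. The dotted line marks 2-fold. *Fkbp10*, *Lox*, *Crtap* and *Plod2* lie right of it in both sections and *Serpinh1* in Loaded, at 1.61.

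The Control values depended on 1 block of bone and on which other spots were used. Other spots held 31.1% muscle marker UMIs in Control and 19.7% in Loaded. Against other spots with under 10% muscle markers, none of the 10 members was 2-fold higher in Control bone, with *Fkbp10* at 0.68 and *Serpinh1* at −0.31, while in Loaded bone *Lox* (1.32), *Serpinh1* (1.32) and *Fkbp10* (1.27) still were. Without the fourth block of Control bone, 1 member remained past 2-fold there, *Fkbp10* at 1.37. That block held 516 of the 839 member UMIs of Control bone, 364 collagen UMIs per 10000 UMIs against 54.1 in the first block, and 6.54% muscle markers against 29.8%.

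Levels by distance from bone were followed next. In Control the 10 enzymes gave 15.1 UMIs per 10000 UMIs in bone, 14.9 at 1 spot distance, 9.30 at 2 and 5.69 at 3. In Loaded the corresponding levels were 17.6, 14.4, 8.71 and 8.53. At 4 to 5, 6 to 10 and over 10 spot distances they were 4.75, 4.87 and 6.45 in Control and 6.83, 6.44 and 5.57 in Loaded. Collagen in Loaded was 609 in bone, 325 at 1 spot distance and 116 at 2, and in Control 192, 158 and 90.2. In Control it was 29.1 at 6 to 10 spot distances and higher again beyond 10 (89.5), while in Loaded it was 71.6 and 57.6. Muscle markers went from 16.9% in bone to 28.1% at 3 spot distances in Control and from 8.98% to 17.8% in Loaded, and their part in the decline was not tested.

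**Figure D4:**
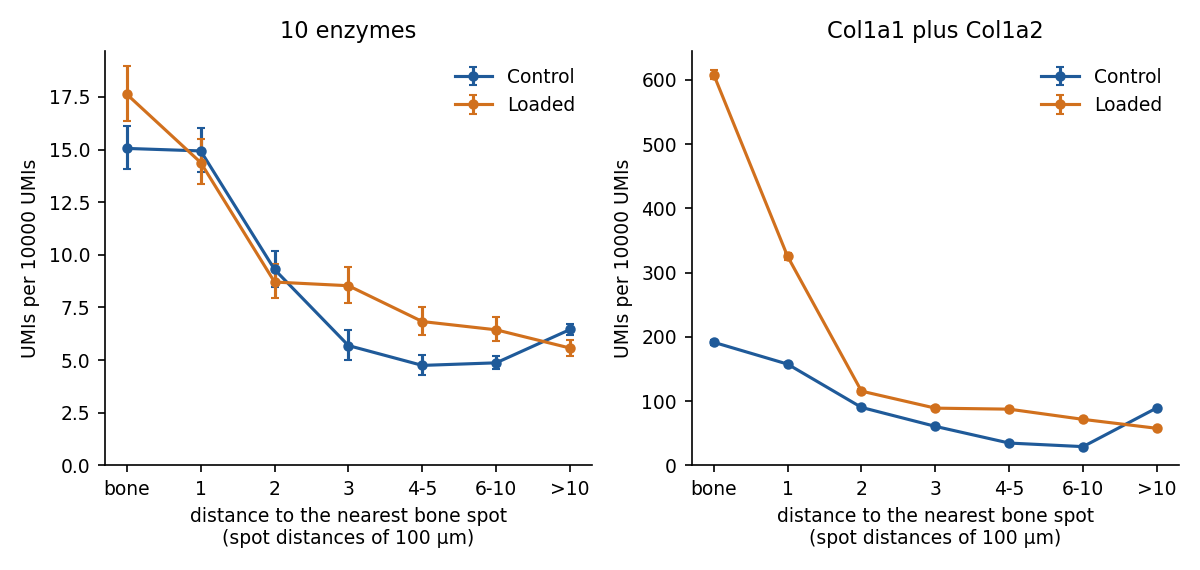
Summed level of the 10 enzymes (left) and of *Col1a1* plus *Col1a2* (right), in UMIs per 10000 UMIs, by distance to the nearest bone spot in Control (blue) and Loaded (orange), with exact 95% intervals for counting error. The enzyme curves start at 15.1 and 17.6 in bone, whereas the collagen curves start at 192 and 609.

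Spots were then grouped by their own collagen level, to show how the enzymes ran with collagen inside each section. Within each section the summed enzymes were higher where collagen was higher, while single members differed. In Control bone they gave 7.56 UMIs per 10000 UMIs in spots with 50 to 100 collagen UMIs per 10000 (25 spots), 15.2 with 100 to 200 (38 spots) and 21.2 with 200 to 400 (30 spots). In Loaded bone they gave 7.88 with 100 to 200 (21 spots), 11.3 with 200 to 400 (36 spots), 18.6 with 400 to 800 (53 spots) and 26.6 above 800 (32 spots). From the lowest to the highest of these groups the log2 difference was 1.49 in Control (1.08 to 1.92) and 1.76 in Loaded (1.25 to 2.30). Over single bone spots the Spearman correlation of the summed enzymes with collagen was 0.573 in Control (131 spots) and 0.491 in Loaded (146 spots), with *Serpinh1* at 0.500 and 0.450 and the other members between −0.02 and 0.37. Over other spots the sum had 0.450 in Control and 0.350 in Loaded. Single members there ran from −0.31 (*P4hb*) to 0.32 (*Serpinh1*) in Control, with *P4ha1* at −0.18 and *Plod1* at −0.15. In Loaded they ran from 0.00 (*P4ha1*) to 0.24 (*Lox*). The spots share a library, both quantities share the spot's total, and muscle markers ran the other way, with a Spearman correlation of −0.722 with the enzymes in Control bone and −0.330 in Loaded bone.

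The same collagen groups hold different parts of the sections. The group of 100 to 200 took 21 of the 146 Loaded bone spots, from the low end of that section, and 38 of the 131 Control bone spots. Its enzymes gave 15.2 per 10000 UMIs in Control and 7.88 in Loaded, a log2 ratio of −0.94 (−1.51 to −0.42), and those of the group of 200 to 400 gave 21.2 and 11.3, a log2 ratio of −0.91 (−1.25 to −0.58). Without the fourth Control block the latter was −0.55. These values were set side by side after the data were seen and rest on the same counts as the results above. A ratio below 0 can, but need not, follow once collagen is higher in Loaded and enzymes are not higher to the same degree. Single members had medians of −1.36 (8 tested) and −0.76 (10 tested) in the 2 groups. These rest on few counts, as Loaded bone held 35 member UMIs in the first group and 107 in the second. In the first group single members had 2 to 10 Loaded UMIs, and only the interval of *Serpinh1* left out 0. All genes tested there had medians of −0.13 and −0.07. The values are not taken as a separate difference of the enzymes, which was not tested. Other spots of the same groups had log2 ratios of −0.35 (−0.48 to −0.21) and −0.45 (−0.62 to −0.29). In other spots with 0 to 25, 25 to 50 and 50 to 100 the ratios were 0.13, 0.17 and 0.01, with intervals that held 0. With 400 to 800 the ratio was −0.13 (−0.38 to 0.13).

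Spots of equal collagen differed in marker content between the sections. With 200 to 400 collagen UMIs per 10000, tendon and fibrous tissue markers took 0.632% of UMIs in Control bone and 0.136% in Loaded bone, osteoblast markers 0.104% and 0.288%, and muscle markers 8.33% and 11.05%. With 100 to 200 the values were 0.266% and 0.101%, 0.0574% and 0.203%, and 10.8% and 11.4%. The part of these tissues in the values was not tested.

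**Figure D5:**
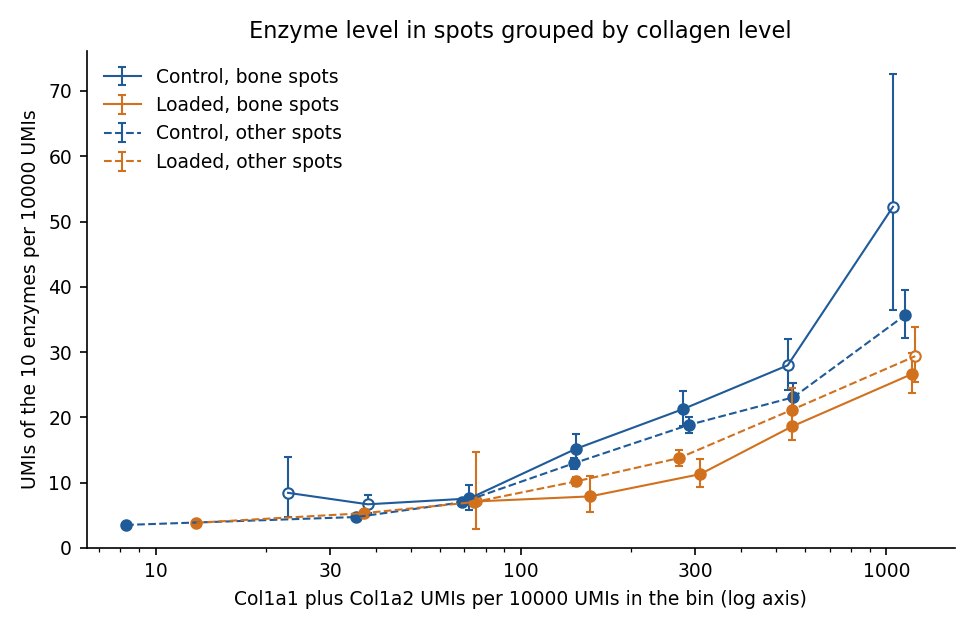
Summed level of the 10 enzymes (UMIs per 10000 UMIs) in spots grouped by *Col1a1* plus *Col1a2* UMIs per 10000 UMIs (log axis, each point at the level of its group) in bone (solid lines) and other spots (dashed lines) of Control (blue) and Loaded (orange). Bars are exact 95% intervals for counting error and open points are groups of under 20 spots. Every line goes up with collagen beyond 100, as from 7.88 to 26.6 in Loaded bone. Groups hold different parts of the sections, whose collagen levels differ.

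Over all other spots together, Loaded over Control differences of the enzymes were small. Their median was −0.03, with a range from −0.47 to 0.48 and no member past 2-fold, where 3.18% of 11319 genes were higher and 4.08% lower. Above 0 lay 5 of 10, as did 50.3% of genes, and the blocks of every member overlapped between sections (1.55% of genes had every Loaded block above and 2.74% below). *Crtap* (+0.48, 0.21 to 0.76), *P3h1* (+0.28, 0.01 to 0.56) and *P4ha1* (+0.27, 0.03 to 0.51) had intervals above 0 (23.2% of genes did). *Serpinh1* (−0.47, −0.59 to −0.36), *Lox* (−0.35, −0.62 to −0.09), *P4hb* (−0.32, −0.46 to −0.17) and *Ppib* (−0.24, −0.41 to −0.06) had intervals below 0 (26.8%). *Plod1* (0.20), *Fkbp10* (0.18) and *Plod2* (−0.31) had intervals that held 0. Scaled by library totals, which moves all genes up by 0.37 here, 9 of 10 members lay above 0, *Serpinh1* being the exception. In other spots with under 10% muscle markers the median was −0.55 and 2 members were past 2-fold.

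Detection of the enzymes in single spots was compared at an equal depth of 1000 UMIs drawn from each spot, so spots with fewer were set aside, 15 in Loaded bone and, among muscle spots, 166 in Control and 42 in Loaded, which left 886 and 691 muscle spots. *Serpinh1* was detected in 31.3% of Control bone spots (95% exact binomial interval 23.5 to 40.0) and 37.4% of Loaded bone spots (29.1 to 46.3), against 17.2% and 13.0% of muscle spots, which are other spots with at least 10% muscle markers. *P4hb* was detected in 19.1% and 12.2%, and in 11.5% and 10.9% of muscle spots, the latter within the interval of Loaded bone (7.15 to 19.1). *Lox* was detected in 12.2% and 11.5%, and in 4.74% and 1.59% of muscle spots. *Fkbp10* was detected in 12.2% and 8.40%, and in 2.71% and 2.75% of muscle spots. *P4ha1* was detected in 3.05% and 7.63%, and in 3.39% and 6.22% of muscle spots, which lie inside the bone intervals (0.838 to 7.63 and 3.72 to 13.6). Before thinning, at median depths of 3478 and 2621 UMIs in bone and 4629 and 3359 in muscle, *Serpinh1* was detected in 65.6% and 66.4% of bone spots. The 10% limit was not applied to bone spots, whose median muscle marker share was 12.3% in Control and under 10% in Loaded. Bone and muscle spots thus overlapped in muscle markers, and these shares do not compare separate tissues.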

How the data were processed

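The authors sequenced probe libraries of 2 formalin-fixed sections, aligned spots to the histology image and used Space Ranger 2.0.0 to count UMIs, with mm10 named in the processing notes. The deposited values are these raw counts, without normalization. Bone spots came from the authors' barcode list, and spots with under 500 UMIs or 250 genes were removed as in the authors' methods (64 in Control, 5 in Loaded). The authors normalized with scran and tested single spots with DESeq2. The normalization was kept and the test was not repeated, since spots of 1 section are not replicates. The strain regions of the Loaded section were not analysed here.

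UMI sums of a region were divided by summed scran size factors (R 4.3.3, scran 1.30.0, edgeR 4.0.16 for the TMM alternative), fitted over the bone spots for Loaded over Control in bone and over all passing spots otherwise. Intervals at the 95% level (exact Poisson, binomial or conditional binomial, scipy 1.17.1, Python 3.11.15, numpy 2.4.6, pandas 2.3.3) cover counting error only. Members needed 10 UMIs and background genes 50, in 4 comparisons. Each region was cut into 4 blocks at the medians of its principal axes, and blocks are not replicates. Thinning used a fixed seed. Scripts were tested on simulated data, and figures were drawn with matplotlib 3.10.9. Coordinates are from GENCODE M21 (19451 of 19465 identifiers matched).

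The members and lists were chosen with earlier results of these data known. Named genes are the members, *Col1a1*, *Col1a2*, pathway genes with 50 UMIs and a 2-fold difference, and the 5 genes most alike the members over 16 blocks. In the bone comparison *P4ha2*, *Hspa5*, *Hsp90b1*, *Kdelr2*, *Pcolce*, *Loxl1*, *Adamts2*, *Bmp1*, *Fkbp14*, *Adamts14* and *Colgalt2* were named after their values were seen. The 8 marker lists cover muscle, osteoblasts, osteoclasts, granulocytes, erythroid cells, plasma cells, chondrocytes and tendon. Alternatives were other scalings, spot weights, filters, muscle limits, single collagen genes and leaving out each block. The comparison at matched collagen, scaled by library totals, and its alternatives were added after the data were seen.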

Additional observations from a re-analysis of the deposited data

Results flagged for a closer look

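The chaperone gene *Serpinh1* and the lysyl oxidase gene *Lox* had Loaded over Control ratios on opposite sides of 0 in bone and in other spots when scaled with size factors fitted over all spots. *Serpinh1* was 0.45 (log2) higher in Loaded in bone spots (95% counting interval 0.21 to 0.70) and lower in other spots (−0.47, −0.59 to −0.36), a difference of 0.93. For *Lox* the values were 0.49 (0.00 to 0.97) in bone and −0.35 (−0.62 to −0.09) in other spots, a difference of 0.84. With 1 section per condition these differences were not tested. *Plod1* (−0.11 in bone and 0.20 in other spots) and *Fkbp10* (−0.01 and 0.18) also lay on opposite sides. How many of all genes do so was not counted, so opposite sides are not shown to be particular to these genes. Above 0 lay 48.6% of 3914 genes in bone, with size factors of the bone spots, and 50.3% of 11319 genes in other spots. On the same scale *Col1a2* stood at 1.76 in bone and −0.07 in other spots. *Col1a1* lay above 0 in both, at 1.46 in bone and 0.67 in other spots (0.64 to 0.70). The bone values of *Serpinh1* and *Lox* also moved with single blocks. With size factors of the bone spots, which gave 0.35 and 0.39, each block was left out in turn. *Serpinh1* then ranged from −0.06 to 1.33 and *Lox* from −0.11 to 0.78. For *Lox* the sides of 0 also depended on the processing. With size factors of the bone spots the *Lox* interval in bone was −0.10 to 0.87, with equal weight for every spot its value there was −0.05, and with library totals it was 0.02 in other spots. *Serpinh1* was 0.01 in bone spots with under 10% muscle markers.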

How the results depend on the processing

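With 1 section per condition, every value rests on 1 animal per condition, and counting intervals of the members in bone reach as far as −1.34 and 1.53. Among 199 alternative values of the main quantities, 170 were counted as the same, 29 as moved and 0 as reversed. Values close to 0 could change sign and still count as the same. The median Loaded over Control ratio of the members in bone (0.01) ran from −0.33 to 0.13 over 8 alternatives, all counted as the same. It ran from −0.32 to 0.50 when blocks were left out. In bone, the count of members past 2-fold between Loaded and Control was 1 in place of 0 with equal weight for every spot (*P4ha1* at 1.05) and 0 to 1 when blocks were left out. In other spots that count was 2 with equal weight, 1 in muscle spots alone, 2 where muscle markers took under 10% and 0 to 1 when blocks were left out, and the median of −0.03 was 0.35 with library totals, −0.55 at a muscle share below 10% and −0.29 to 0.10 when blocks were left out. For bone over other spots in Control, the median of 0.64 was 1.19 with library totals, which raise the median of all genes by 0.55, and 0.21 to 0.93 when blocks were left out. The count of 4 was 1 with equal weight, 0 against other spots with a muscle share below 10% and 1 to 5 when blocks were left out. In Loaded the count of 5 was 3 with TMM factors and 3 against other spots with a muscle share below 10%. Per collagen UMI, the median log2 ratio of Loaded over Control in other spots was −0.70 with *Col1a1* alone and −0.46 to 0.35 when blocks were left out, and that of bone over other spots in Control was −0.87 with *Col1a1* alone and −0.53 to 0.32 when blocks were left out. At matched collagen in bone (added after the data were seen), leaving out blocks gave −1.14 to −0.70 with 100 to 200 collagen UMIs per 10000 and −1.01 to −0.55 with 200 to 400. In bone, the median Loaded over Control ratio per collagen UMI was −2.05 to −1.35 when blocks were left out. The median share of Control bone spots in which a member was detected was 3.44% at 500 UMIs and 33.2% without thinning, and in Loaded 24.7% without thinning. With quartiles of the Control bone spots in place of fixed collagen groups, the log2 difference between highest and lowest was 1.99. The cause of these shifts was not tested. No paired analysis was possible because each condition has 1 section.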

Other observations

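Over the 16 blocks of both sections, the genes whose levels were most alike the summed enzymes among 7945 candidates were *Col6a3*, a chain of type VI collagen (Pearson correlation 0.982), *Serpinf1*, which encodes the secreted factor PEDF (0.962), *Bmp1*, the protease that removes the procollagen C-propeptide (0.957), *Mrc2*, a receptor for collagen uptake (0.952), and *Scarf2*, a scavenger receptor (0.945). *Col1a1* reached 0.863 and *Col1a2* 0.799. Blocks of a region share a section and a library, so these values are descriptions. In bone spots the Loaded over Control log2 ratios of these genes were 0.20 for *Col6a3* (498 UMIs in Control and 455 in Loaded), −0.55 for *Serpinf1* (288 and 157), 0.56 for *Bmp1* (146 and 171), 0.41 for *Mrc2* (83 and 88) and −0.36 for *Scarf2* (111 and 69). Each lay below the ratio of collagen, as did 98.3% of genes.

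Single members were alike the sum of the other members to different degrees. *Crtap* (0.951), *Lox* (0.949) and *Serpinh1* (0.932) were closest, *Fkbp10* (0.818), *Ppib* (0.768), *Plod2* (0.748) and *Plod1* (0.731) lay between, and *P4hb* (0.593), *P4ha1* (0.451) and *P3h1* (0.409) were least alike. Over all spots these last members had 1880 (*P4hb*), 639 (*P4ha1*) and 526 UMIs (*P3h1*). *Crtap* had 538, *Fkbp10* 516 and *Plod2* 350. How far the number of UMIs bears on these correlations was not tested.

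In each section 25 of the 29 pathway genes had at least 50 UMIs over bone and other spots. Those at least 2-fold higher in bone were, in Control, *Loxl1* (+1.49), *Pcolce* (+1.33), *P3h3* (+1.27), *Loxl3* (+1.23), *Bmp1* (+1.10) and *Adamts2* (+1.10), where 5.04% of 10257 genes were. In Loaded they were *Creb3l1* (+2.26), *Adamts14* (+1.92), *Bmp1* (+1.60), *Kdelr2* (+1.32), *P3h4* (+1.28) and *Fkbp14* (+1.19), where 4.31% of 9588 genes were. When each block was left out, all of these fell below 2-fold in Control, as far as 0.26 for *Adamts2* and 0.47 for *Loxl1*. In Loaded only *Fkbp14* did (0.85). *Bmp1* was the gene named in both sections. *Tll1*, with 5 and 22 UMIs, was also past 2-fold in Control (+1.23).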
